A study of Mus musculus with 6 samples.

Results

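The ganglionic eminence and GABA neuron genes described here were 9 mouse genes, Dlx1, Dlx2, Dlx5, Dlx6, Gsx2, Nkx2-1, Lhx6, Gad1 and Gad2, chosen by name for their known roles, with earlier results of these data known but by no rule on a measured value. They were found by mapping the RefSeq transcript IDs of the count tables to gene symbols, and every ID of a listed gene was kept. This gave 9 of 23485 IDs, for 8 of the 9 genes, because no ID in the tables mapped to Lhx6, which was not analysed here. Of the 9 IDs, 8 had 10 or more counts in at least 1 sample and entered the test of sex, together with 13374 IDs in all. The ID of Dlx5 did not pass this filter.

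Gene expression was measured by RNA-seq in whole brain taken at E15.5 (E, embryonic day) from embryos of the C57BL/6 strain, wild-type in genotype. There were 3 female and 3 male samples, each made of RNA pooled from several embryos whose sex was read from the testicular cords. Both groups carried no mutation and received no treatment, so sex was the only contrast named in the labels. The paper pooled embryos to limit differences between litters and in embryo timing, so the pools can differ in more than sex. A whole-brain sample mixes many cell types, and fewer cells of a type and less RNA per cell cannot be told apart.

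The ganglionic eminences are the progenitor zones of the ventral forebrain that produce cortical interneurons and striatal projection neurons, most of which release GABA. In these zones Gsx2 acts early in progenitors, the DLX homeobox factors promote GABA neuron differentiation and migration, and NKX2-1 patterns the medial eminence. Gad1 and Gad2 encode both glutamate decarboxylases that make GABA, in ventral forebrain neurons and in GABA neurons elsewhere in the brain.

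Sequencing depth ranged from 4908565 to 10294443 counts per sample. The level of an ID is given as CPM, counts scaled to a TMM-normalised total of 1000000 over the tested IDs. Xist had 6153 to 10001 counts in female samples and 4 to 7 in male samples, and the Y-linked genes Ddx3y and Kdm5d had at most 1 count in any female sample, as the labels of sex require. Male 1 had the largest total and also the most IDs without a count, 6743, against 4120 in female 2, the smallest library. Values that male 1 moved by more than 1.5 times, or across 0, are given without it for the members and for most named genes.

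The tissue label was checked against marker lists. Of the 8 genes listed for all neurons, Elavl4, Snap25, Syt1 and Dcx were low, with mean counts per sample of 3.67, 6.83, 9.67 and 32. The most abundant IDs were Tubb3, at 1577 CPM on average over the 6 samples, Map2 at 571 CPM and Stmn2 at 550 CPM. Markers of other tissues were also high in every sample. The summed level of the 12 IDs for muscle, skin, cartilage and blood was 4036 to 4312 CPM in females and 3855 to 4112 CPM in males, with Myh3, the embryonic myosin of skeletal muscle, at 2374 CPM on average and Krt5, a keratin of basal epidermis, at 304 CPM. The 16 IDs of craniofacial mesenchyme summed to 355 to 396 CPM in females and 337 to 370 CPM in males. Of the first list 2 IDs, Acan and Alas2, and of the second 0 had at most 3 counts in every sample. Dlx genes are active in craniofacial mesenchyme as well as in the ventral forebrain, and the part of non-neural RNA in the values below was not tested.

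The homeobox members share a DNA-binding domain with a conserved recognition helix. The stretch shown for each of 5 genes is 30 coding bases that start at the conserved WFxN motif, read 5′ to 3′ from the GENCODE transcripts of NCBIM37 (mm9). It is shown because reads can be counted for 1 paralogue only where the copies differ. Capitals mark bases that differ from Dlx1.
Dlx1: tggttccagaacaaacgctccaagttcaag
Dlx2: tggttccagaacCGCcgAtccaagttcaag
Dlx5: tggttTcagaacaaaAgAtccaagAtcaag
Dlx6: tggttTcagaaTaaGcgctcTaagttTaag
Gsx2: tggttTcagaacCGTcgcGTGaagCAcaag

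The window of Dlx1 lies at chr2:71370330-71370359 on the plus strand and that of Dlx2 at chr2:71382943-71382972 on the minus strand, both in exon 3 of 3. Those of Dlx5 (chr6:6828450-6828479, minus strand) and Dlx6 (chr6:6817050-6817079, plus strand) are also in exon 3 of 3. Gsx2 has its window at chr5:75473161-75473190, plus strand, exon 2 of 2. The windows of Dlx2 and Dlx5 differed from that of Dlx1 at 4 of 30 bases, that of Dlx6 at 5, and that of Gsx2 at 9. Over whole transcripts, the longest run of identical bases between any 2 of these 5 genes was 24 bases, between Dlx5 and Gsx2. Between Gad1 and Gad2 it was 17 bases.

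DLX1 and DLX2 are encoded by neighbouring genes that face each other on chromosome 2 and that act together in GABA neuron development. Dlx1 (NM_010053, chr2:71366170-71372038) had 45.4, 51.7 and 48.4 CPM in female samples 1, 2 and 3 and 33.0, 42.3 and 41.3 CPM in male samples 1, 2 and 3. All 3 males were below all 3 females, and male 1 was the lowest. Females averaged 48.5 ± 3.18 CPM (SD, n = 3) against 38.9 ± 5.12 CPM in males (SD, n = 3), and the difference did not pass the test, with a log2 fold change (male minus female) of -0.32 (SE 0.15, 95% interval -0.65 to 0.01) and an adjusted p of 0.442 in edgeR's quasi-likelihood test. Without male 1 the log2 fold change of Dlx1 was -0.21.

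Dlx2 (NM_010054, chr2:71381466-71384811) had 33.9, 38.8 and 31.7 CPM in females and 33.3, 35.9 and 32.0 CPM in males. These ranges overlapped almost completely. Its log2 fold change was -0.04 (SE 0.16, 95% interval -0.38 to 0.30), with an adjusted p of 0.942 in edgeR. A p that misses the threshold does not show that the sexes were equal, and the interval bounds what these samples allow.

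Dlx1as, a non-coding RNA on the opposite strand, spans all 5869 bases of the Dlx1 gene. It was measured at 28.9 to 37.0 CPM, and its log2 fold change was -0.03 (SE 0.16). The libraries were stranded, but whether the counting used the strand of the reads is not stated in the sources used here, so in these counts reads of Dlx1 and Dlx1as cannot be told apart where both are transcribed.

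DLX5 and DLX6 are encoded by a similar facing pair on chromosome 6, and they act later than DLX1 and DLX2 in the same neurons. Dlx6 (NM_010057, chr6:6813334-6818568) had 6.16, 5.19 and 7.05 CPM in females and 4.97, 5.05 and 10.8 CPM in males. Male 3 was well above the other 5 samples, while males 1 and 2 were the lowest. The log2 fold change was 0.18 (SE 0.35), with an adjusted p of 0.873 in edgeR, and it turned to -0.29 without male 3 and was 0.38 without male 1. Dlx6os1, a non-coding RNA on the opposite strand that spans all 5235 bases of Dlx6, was the most abundant of the 15 IDs of other ventral regulators, at 79.0 to 135 CPM, with male 1 the lowest and a log2 fold change of -0.17 (SE 0.17) that was 0.02 without male 1. As for Dlx1 and Dlx1as, reads of Dlx6 and Dlx6os1 cannot be told apart where both are transcribed, so the level of Dlx6 is uncertain. The overlap is that of gene spans, and the overlap of exons was not tested.

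Dlx5 (NM_010056, chr6:6827805-6832085) had 1, 2 and 0 counts in the female samples, 0, 0 and 4 in the male samples, and 7 in all. The limit behind a count of 0 is 3 counts, or 0.291 to 0.611 CPM at these depths, for counting error only. This near absence must be read beside the number of RefSeq transcripts per gene. Among protein-coding genes with 1 RefSeq accession in the RefSeq table for GRCm38.p6, the median of the mean count per sample was 121, and 30.9% of the 11455 genes with an ID were under 10. Among the 3185 such genes with 2 accessions the median was 5, and 60.7% were under 10. Dlx5 has 2 accessions, of which 1 is in the tables. Dlx1, Dlx2, Dlx6, Gad2, Gsx2 and Nkx2-1 have 1 each, and Lhx6 has 5 and no ID. Gad1 has 2, both in the tables, with a mean of 558 counts. Genes of neurons with several accessions were low in part, with mean counts of 6.83 for Snap25 and 9.67 for Syt1, both of the synaptic release machinery, but not in all cases, with 4428 for Map2 and 298 for Calb2. The count of Dlx5 is thus given as listed, and no statement on its expression was drawn from it.

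GSX2 and NKX2-1 are homeobox regulators of ventral progenitors. Gsx2 (NM_133256, chr5:75471489-75473918) was the lowest member tested, with 9, 10 and 26 counts in the female samples against 19, 10 and 20 in the male samples. On the CPM scale this was 1.46 to 2.65 in females and 1.53 to 2.00 in males, and the ranges overlapped. Its log2 fold change of -0.16 carried an SE of 0.50, and a difference of up to about 1 log2 unit in either direction was not detectable at this depth (95% interval -1.23 to 0.91). Without female 3 it turned to 0.11.

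Nkx2-1 (NM_009385, chr12:57632922-57637895) is also known for its role in thyroid, lung and hypothalamus, so its level is not a measure of the medial eminence alone. It had 11.5, 12.2 and 8.48 CPM in females and 11.9, 6.42 and 7.01 CPM in males. Males 2 and 3 were the lowest and male 1 lay among the females. The log2 fold change was -0.32 (SE 0.29), with an adjusted p of 0.679 in edgeR. Without male 1 it was -0.66, with an unadjusted p of 0.0321 and an adjusted p of 0.467 in the same test, while it was -0.17 without male 2 and -0.20 without male 3. Male 1 was high for Nkx2-1 and low for Dlx1. Tg, the thyroid hormone precursor, was at 9.78 to 26.8 CPM and Pax8, a regulator of thyroid and kidney, at 4.90 to 8.99 CPM. The log2 fold change of Tg was 0.21 and turned to -0.26 without male 3, and that of Pax8 was -0.49. Their part in the value of Nkx2-1 was not tested.

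**Figure D1:**
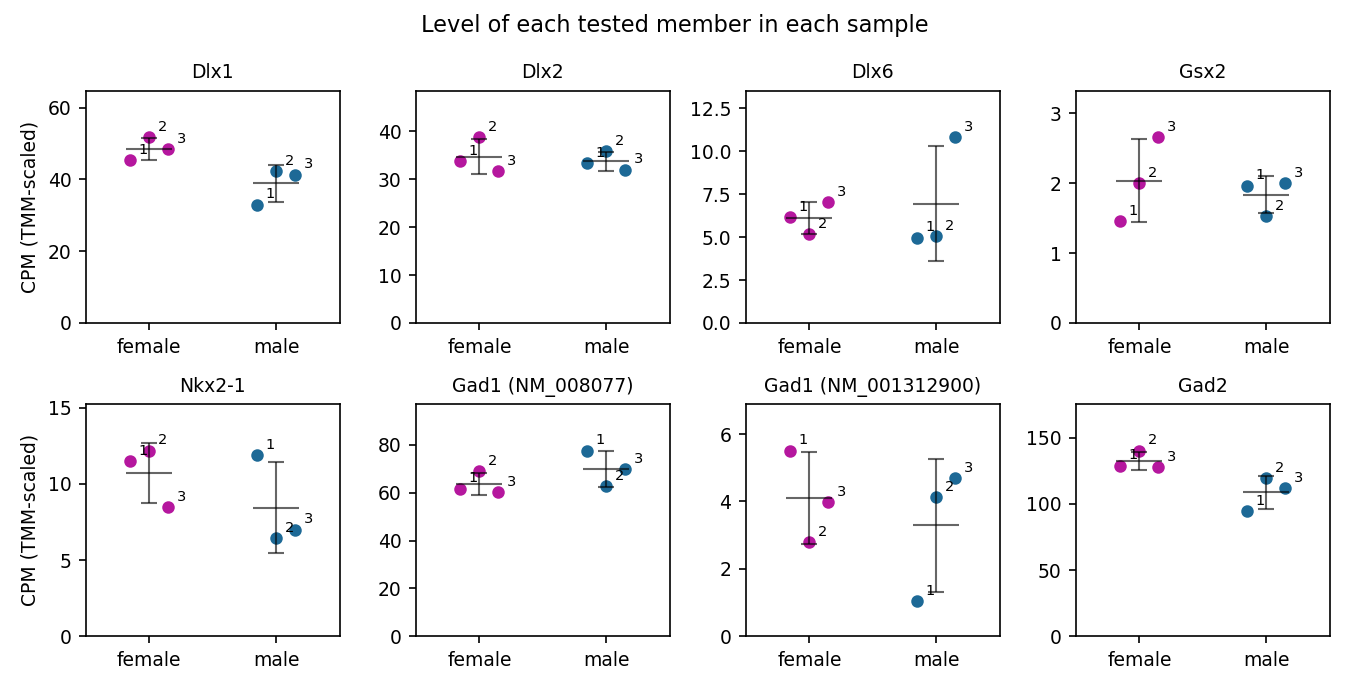
CPM (y axis, TMM-scaled, from 0) of each tested member ID in the 3 female and 3 male samples, with the replicate number beside each point and the mean and SD as bars. The 3 males lie below the 3 females for Dlx1 and Gad2, and the sexes overlap for the other 6 IDs.

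The GABA-synthesising enzymes were the most abundant members. Gad2 (NM_008078, chr2:22477725-22549394), which encodes the synaptic form GAD65, had 129, 140 and 128 CPM in females and 94.7, 119 and 112 CPM in males. All 3 males were below all 3 females, again with male 1 the lowest. Females averaged 132 ± 6.84 CPM (SD, n = 3) against 109 ± 12.6 CPM in males (SD, n = 3). The log2 fold change was -0.29 (SE 0.13, 95% interval -0.56 to -0.01), with an unadjusted p of 0.0458 and an adjusted p of 0.430 in edgeR, so Gad2 did not pass the test. Without male 1 the log2 fold change of Gad2 was -0.20.

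Gad1, which encodes GAD67, had 2 IDs in the tables, both at chr2:70391129-70440071 in the annotation of genes. NM_008077 had 61.7, 68.9 and 60.4 CPM in females and 77.6, 62.7 and 69.8 CPM in males, and male 1 was the highest of the 6 samples. Its log2 fold change was 0.14 (SE 0.14, 95% interval -0.16 to 0.44), and 0.058 without male 1. NM_001312900 had 5.51, 2.80 and 3.98 CPM in females and 1.04, 4.13 and 4.70 CPM in males, and male 1 was the lowest. Its log2 fold change of -0.33 (SE 0.51) turned to 0.10 without male 1. How reads shared by both IDs were counted is not stated in the sources used here, so the split between them is uncertain, and neither ID passed the test.

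The levels of different genes were compared only after division by the length of the longest coding transcript in GENCODE. Per kilobase (kb), Gad2 stood at 21.0 ± 2.76 CPM (SD, n = 6), Gad1 (NM_008077) at 19.9 ± 1.95, Dlx2 at 13.9 ± 1.08, Dlx1 at 10.6 ± 1.58, Nkx2-1 at 3.38 ± 0.917, Dlx6 at 2.95 ± 1.01 and Gsx2 at 1.16 ± 0.258. The ranges over the 6 samples overlapped between Gad2 and Gad1 and between Nkx2-1 and Dlx6, and did not overlap between the other neighbours in this order. The length over which reads of Gad1 were counted is not known, because it has 2 IDs, so its place in the order is uncertain.

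**Figure D2:**
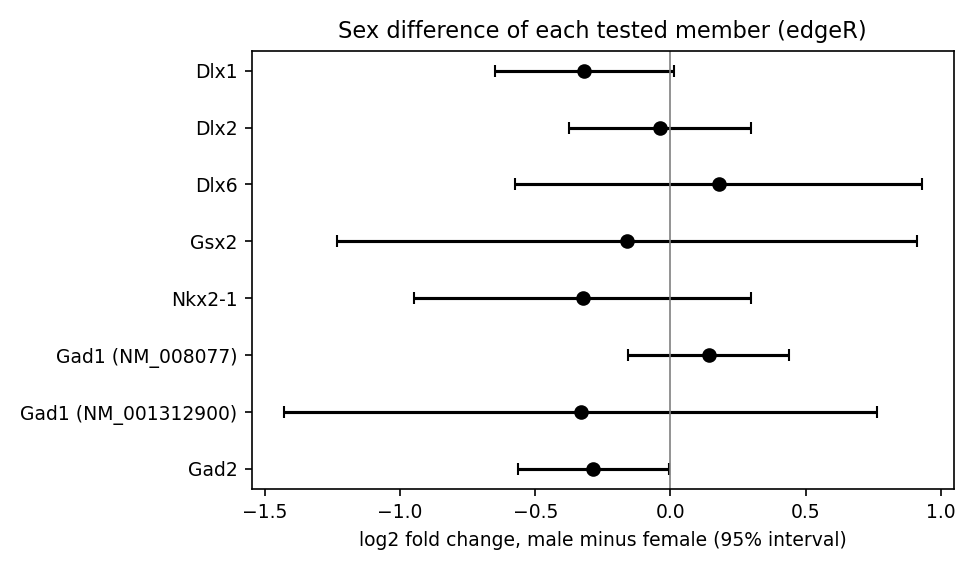
log2 fold change (x axis, male minus female) of each tested member ID with its 95% interval from edgeR. Gad2 has the only interval that does not include 0, ending at -0.01, and the widest intervals belong to the members with the fewest counts.

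Over the 8 tested IDs, 0 passed an adjusted p of 0.05 in edgeR's test. In DESeq2 4 of the 8 had an adjusted p, Dlx1, Dlx2, Gad2 and the main ID of Gad1, and 0 of these passed. Over all tested IDs, 4 passed (0.0299%) in edgeR, and 1.91% of the 5595 IDs with an adjusted p passed in DESeq2. At an unadjusted p under 0.05, 1 member passed in edgeR and 1 in DESeq2, Gad2 in both, against 11.5% of all tested IDs in either direction and 4.82% in the direction lower in males. The CPM of the sexes did not overlap for 2 of the 8 member IDs, Dlx1 and Gad2, both with females above, which was the case for 8.35% of all tested IDs in that direction and for 17.1% in either direction. With 8 IDs, nothing particular to the members was read from counts of 1 or 2. The median log2 fold change of the member IDs was -0.22, with 6 lower and 2 higher in males, and over all tested IDs it was -0.01. Without male 1 the member median was -0.11, and without male 2 it was -0.12.

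**Figure D3:**
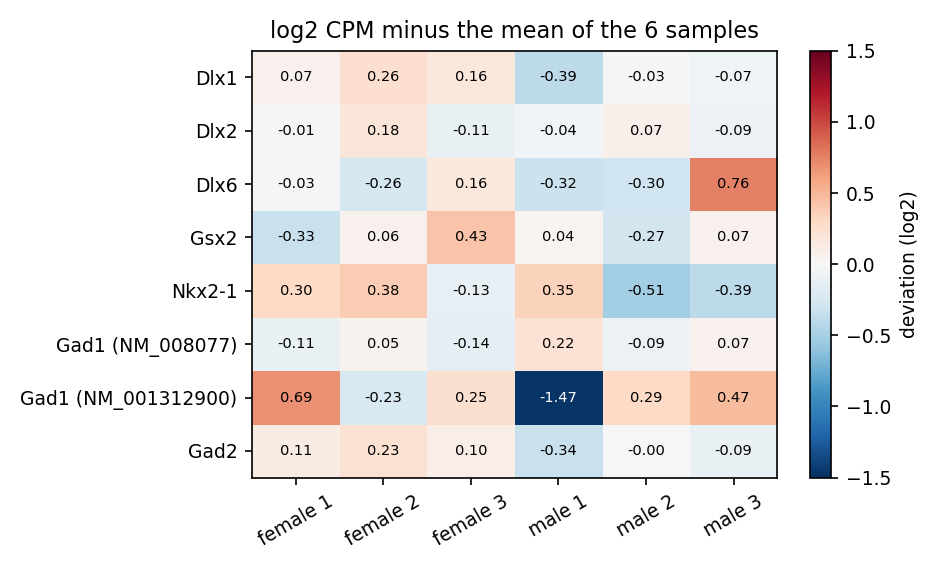
log2 CPM of each tested member ID in each sample, minus the mean of the 6 samples for that ID, as colour and number. Male 1 is the lowest sample for Dlx1, Dlx6, Gad2 and the minor ID of Gad1 and the highest for the main ID of Gad1, and male 3 is the highest for Dlx6.

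Members did not vary as 1 block across the samples. Male 1 was the lowest sample for 4 of the 8 IDs, and female 2 the highest for 4. The median deviation from the 6-sample mean was -0.18 on the log2 scale in male 1 and lay between -0.06 and 0.13 in the other 5 samples. The pattern of male 1 was one of unequal change between related genes, low for Dlx1 and Gad2 and high for the main ID of Gad1.

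These unequal changes were followed as ratios of counts within a library, which do not depend on the scaling of libraries. Both ratios were chosen after the values were seen. Counts of Gad2 over Gad1 (NM_008077) gave ratios of 2.09, 2.03 and 2.12 in females and of 1.22, 1.90 and 1.61 in males. The 3 females were close together and the males were all lower and more spread. On the log2 scale the mean ratio was 1.06 ± 0.03 (SD, n = 3) in females and 0.63 ± 0.32 (SD, n = 3) in males, a difference of -0.42 (exact two-sided permutation test, p = 0.1, the smallest p that 3 against 3 samples allow). Without male 1 the difference was -0.25.

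Counts of Dlx1 over Dlx2 gave ratios of 1.34, 1.34 and 1.53 in females and of 0.991, 1.18 and 1.29 in males. Again every male was below every female. The log2 ratio was 0.48 ± 0.11 (SD, n = 3) in females and 0.20 ± 0.19 (SD, n = 3) in males, a difference of -0.29 (exact two-sided permutation test, p = 0.1, again the smallest possible), and of -0.18 without male 1. Adjusted over these 2 ratios by the Benjamini-Hochberg method, both p stay at 0.1, which does not account for the choice of these ratios among other pairs. Dlx1 and Gad2 were already the members whose sexes did not overlap, so the ratios in part restate those values and are no further support. This permutation test also cannot pass 0.05 with 3 samples a group.

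**Figure D4:**
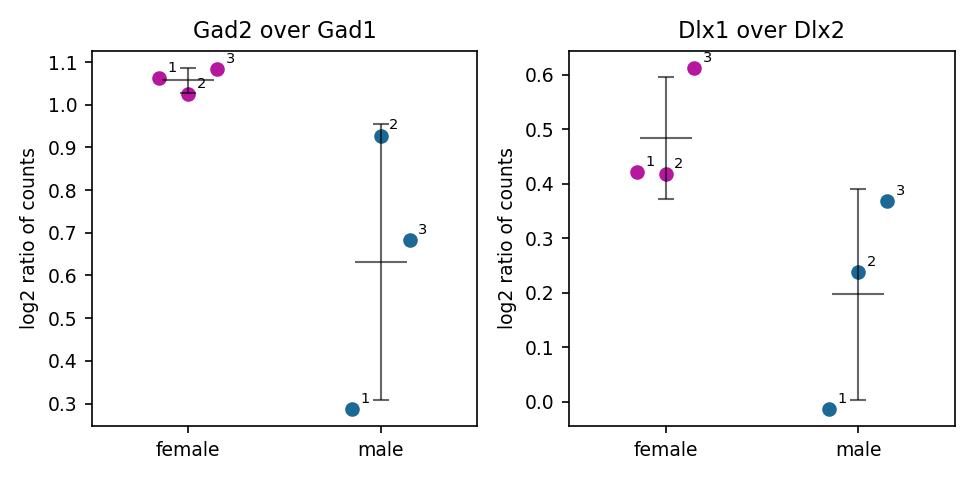
log2 ratio of counts within a library (y axis) of Gad2 over Gad1 (NM_008077) and of Dlx1 over Dlx2 in the 3 female and 3 male samples, with replicate numbers, means and SD. In both panels the males lie below the females, and male 1 is the lowest sample.

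Other genes of the same neurons were followed as lists, and from each list the most abundant IDs and those of smallest unadjusted p are named, so the latter were picked by their change. Among the 15 IDs of other ventral regulators, 13 were tested and 0 passed at an adjusted p of 0.05 in edgeR. Their median log2 fold change was 0.06, with 7 higher and 6 lower in males, and it lay between -0.05 and 0.20 when each sample was left out in turn. Olig1, a factor of ventral and oligodendrocyte progenitors, was at 14.2 to 19.9 CPM in females and 20.5 to 30.1 CPM in males, with a log2 fold change of 0.57 (SE 0.21, adjusted p 0.376 in edgeR), which was 0.37 without male 1.

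Of the interneuron list, 15 of 18 IDs were tested, and their median log2 fold change was -0.19, with 9 lower and 6 higher in males. It was -0.10 without female 2 and -0.097 with the length trend removed. The most abundant were Robo1, a receptor of guidance cues, with 651, 660 and 660 CPM in females and 555, 573 and 597 CPM in males, Erbb4, the neuregulin receptor of migrating interneurons, with a log2 fold change of -0.25 (SE 0.14) that was -0.13 without male 1, and Maf, with -0.22 (SE 0.13). Robo1 was lower in all 3 males, but its log2 fold change of -0.19 (SE 0.11) had an adjusted p of 0.506 in edgeR. In the interneuron list 0 of 15 IDs passed at an unadjusted p under 0.05 in edgeR, against 11.5% of all tested IDs. In DESeq2 0 did so. With 1 RUVr factor in edgeR 2 did, against 2361 of all 13374 tested IDs. With 1 RUVr factor in DESeq2 3 did, against 1881 of 13374, and in edgeR without female 3 also 3, against 2117 of 13162. Nothing particular to the interneuron list was read from these counts.

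Of the striatal list, 10 of 16 IDs were tested, with a median of 0.12 and 7 of 10 higher in males. The median was 0.20 without female 1, 0.042 without female 2 and 0.046 without male 1. Zfp503 and Isl1, which mark developing striatal neurons, were its most abundant members, and differed between the sexes by 0.04 (SE 0.16) and -0.09 (SE 0.16) on the log2 scale, and by -0.11 and 0.0027 without male 1. None of the 10 was past an unadjusted p of 0.05 in edgeR, against 11.5% of all tested IDs. In DESeq2 0 were, against 1432 of 13374 IDs. With 10 IDs, nothing particular to the striatal list was read from this.

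The 7 tested IDs for GABA transport and turnover had a median log2 fold change of 0.16, and 6 of them were higher in males, while Gad2 was lower. The median was 0.054 without female 1, 0.093 without male 1 and 0.26 without male 2. Slc32a1, the vesicular GABA transporter, had a log2 fold change of 0.41 (SE 0.20), or 0.23 without male 1, and was named after its values were seen, since it acts beside Gad1 and Gad2 in the same terminals. Aldh5a1, an enzyme of GABA breakdown, and Slc6a11, a glial GABA transporter, differed by 0.01 (SE 0.13) and 0.10 (SE 0.19) on the log2 scale, and by -0.019 and -0.13 without male 1, so the list did not move as 1 group past the test.

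GABA neurons of midbrain, hindbrain, diencephalon and cerebellum were followed by 10 further genes, of which 6 had a tested ID. Lhx1, Lhx5 and Sox14 were the most abundant, at 34.3, 15.6 and 10.3 CPM on average. Pax2, which marks cerebellar and hindbrain GABA neurons and also kidney and ear, was at 6.84 to 12.0 CPM in females and 3.06 to 6.83 CPM in males, with a log2 fold change of -0.84 (SE 0.35, adjusted p 0.395 in edgeR). The members Gad1 and Gad2 mark these neurons too, so their levels do not belong to the ventral forebrain alone.

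Cortical glutamatergic neurons served as the neighbouring forebrain type. Their 11 tested IDs had a median of 0.07, with 7 higher in males. This median turned to -0.08 without female 1 and to -0.04 without male 2. Neurod6, Neurod2 and Tbr1 were at 182, 123 and 114 CPM on average, and differed by log2 values of 0.07 (SE 0.17), 0.16 (SE 0.14) and -0.27 (SE 0.16), the last being -0.44 without male 1. Neurod6 turned to -0.092 without female 1 and to -0.033 without male 2, and Neurod2 was 0.10 without male 1. Slc17a7, a vesicular glutamate transporter, was higher in all 3 males (0.53, SE 0.23, adjusted p 0.404 in edgeR, and 0.30 without male 1). Of the list for all neurons, Tubb3 had a log2 fold change of 0.39 (SE 0.14, adjusted p 0.356 in edgeR), while Map2 had -0.07 (SE 0.12) and Stmn2 -0.02 (SE 0.20), the last being -0.35 without male 1.

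Markers of other tissues had fold changes in both directions. Dlx3, a Dlx gene of facial mesenchyme, skin and placenta, was at 15.9 to 29.3 CPM, with a log2 fold change of -0.15 (SE 0.22) that was -0.041 without female 1 and turned to 0.043 without male 2. Dlx4, the remaining family member listed, averaged 3.26 CPM in females and 2.39 CPM in males, with -0.44 (SE 0.45), which was -0.77 without male 1 and -0.15 without male 3. Prrx1, a factor of craniofacial and limb mesenchyme, was at 61.8 to 65.0 CPM in females and 40.8 to 60.9 CPM in males, lower in all 3 males as were Dlx1 and Gad2, with a log2 fold change of -0.40 (SE 0.17, adjusted p 0.395 in edgeR). Twist1 had 0.11 (SE 0.13), or 0.053 without male 1, and Alx4 -0.14 (SE 0.15).

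Among muscle, skin, cartilage and blood genes, Myh3 was at 2464 to 2793 CPM in females and 1906 to 2424 CPM in males, with -0.28 (SE 0.13). Matn1, a cartilage matrix protein, had -0.78 (SE 0.33), or -0.49 without male 1 and -1.32 without male 3. Krt15, an epidermal keratin, had 0.51 (SE 0.18), Krt5 0.14 (SE 0.26) and the globin gene Hbb-bt 0.22 (SE 0.19), and without male 1 these were 0.32, -0.34 and 0.093. Their part in the values of Dlx1 and Gad2 was not tested.

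**Figure D5:**
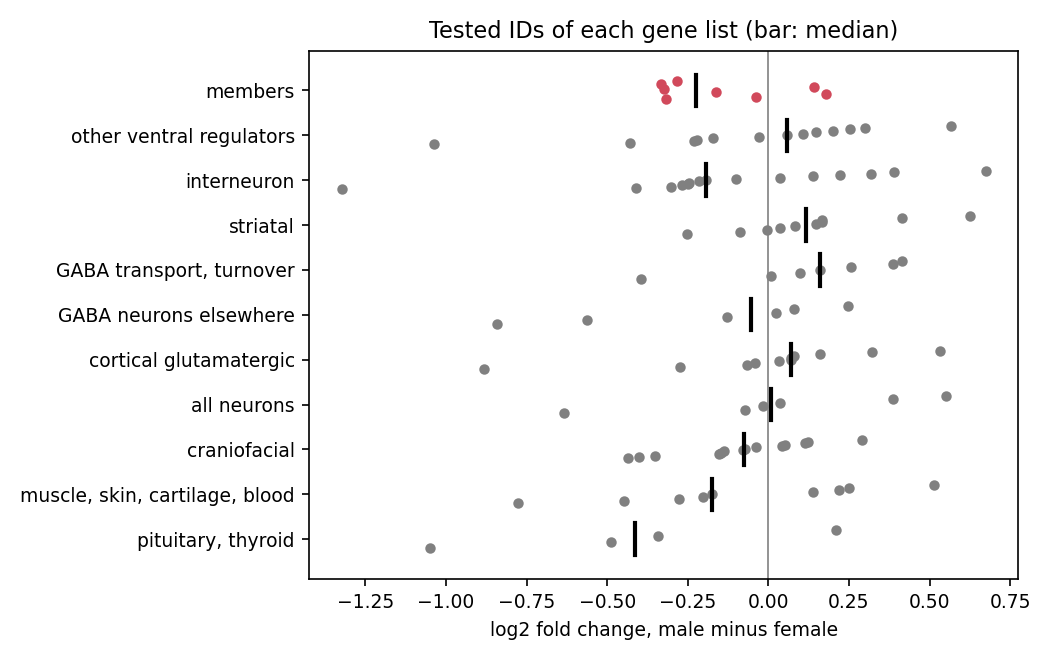
log2 fold change (x axis, male minus female, edgeR) of every tested ID of the members and of the 10 other lists, 1 point per ID, with the median of each list as a bar. The member IDs lie between -0.33 and 0.18, within the spread of most other lists.

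The IDs whose profile over the 6 samples was most like that of the members were sought among the 8352 tested IDs that averaged 50 counts or more. The member profile was the mean over the 8 tested IDs of their centred log2 CPM. It lay at 0.08 to 0.09 in the 3 females and in male 3, at -0.24 in male 1 and at -0.11 in male 2, and the minor ID of Gad1, at -1.47 in male 1, weighed most in it. The most similar were Matn3, a cartilage matrix protein (Pearson r = 0.99, Spearman rho = 0.83, n = 6), the non-coding RNA 9130024F11Rik (r = 0.99, rho = 0.94), Nr3c2, the mineralocorticoid receptor (r = 0.98, rho = 0.71), Dnah10, a dynein of cilia (r = 0.98, rho = 0.77), and Mylk, a myosin kinase of smooth muscle (r = 0.98, rho = 0.60). Of the listed genes, the first was Prrx1, at rank 25, followed by Myh3 at rank 82. These correlations are a description over 6 samples that share the same libraries and depth, and the best of many candidates is high by construction.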

How the data were processed

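The authors trimmed reads with Trimmomatic 0.32, aligned them to mm9 with TopHat2 2.1.1, assembled transcripts with Cufflinks 2.2.1 and assigned reads with featureCounts 1.5.1, per the labels and the study's methods. The deposited values are raw counts per RefSeq transcript ID, 1 table per sample. The treatment of strand and of shared reads, and the number of RUVr factors in the study's DESeq2 model, are not given in the sources used here.

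Symbols came from RefSeq tables for 23355 IDs and 130 had none. Positions and lengths are those of genes in GENCODE on NCBIM37, for 21512 IDs. Replicates are separate pools, and p-values measure the spread between pools. No batch is named in the labels, though the paper used RUVr to adjust for variation between batches. The sexes were compared with edgeR 4.0.16 (R 4.3.3), by the quasi-likelihood F test with TMM scaling, over IDs that reached 10 counts in any sample, with Benjamini-Hochberg adjustment over all tested IDs and a threshold of 0.05. SE is the fold change over the root of F. Alternatives used edgeR and DESeq2 1.42.0. RUVr was left out of the main fit because its factors come from the residuals that the test uses. Ratios were tested with scipy 1.17.1. The fit was checked on simulated counts.

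Members and lists were chosen with earlier results of these data known. Text names the members, Dlx genes, the 3 IDs of highest CPM and up to 4 of smallest unadjusted p under 0.05 in each other list, and the 5 IDs most like the members. The lists cover other ventral regulators, interneurons, striatum, GABA transport and turnover, other GABA neurons, cortical glutamatergic neurons, all neurons, craniofacial mesenchyme, muscle, skin, cartilage and blood, and pituitary and thyroid. The last had a median log2 fold change of -0.42 over 4 tested IDs (-0.15 without female 2), with Tshr at -0.34 (-0.095 without male 1 and -0.72 without male 3). Some genes that this rule names and 1 sequence are not reported here.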

Additional observations from a re-analysis of the deposited data

How the results depend on the processing

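No member ID passed an adjusted p of 0.05 in edgeR or in any of the 14 alternatives, which were RLE size factors, no low-count filter, DESeq2, 1 RUVr factor in edgeR and in DESeq2, the replicate block, removal of the length trend, summed IDs and leaving out each of the 6 samples. The lowest adjusted p was 0.177, for Gad2 in DESeq2 with 1 RUVr factor. Of 111 member values under these alternatives, 106 kept their direction, Dlx1 staying between -0.38 and -0.21 and Gad2 between -0.35 and -0.19. The 5 others came from leaving out 1 sample. Over the 6 such fits Dlx2 ranged from -0.094 to 0.039 and was above 0 without female 2 and, at 0.0062, without male 3. Dlx6 ranged from -0.29 without male 3 to 0.38, the minor ID of Gad1 from -0.70 to 0.10 without male 1, and Gsx2 from -0.35 to 0.11 without female 3. The cause was not tested. DESeq2 gave no adjusted p for 8 of the values, of low-count members. The member median lay between -0.26 and -0.11 when samples were left out. Calls over all IDs were 4 in the main test and 276 without the filter, 107 in DESeq2, 34 in edgeR with 1 RUVr factor, 351 in DESeq2 with 1 RUVr factor, and 4 to 51 when samples were left out. At an unadjusted p under 0.05, 58.1% of IDs were higher in males in the main test and 45.5% in DESeq2 with 1 RUVr factor. Deviations of log2 CPM from the mean of the own sex were correlated between same-numbered samples of the sexes. These correlations were -0.29, -0.06 and -0.20, so samples of 1 number did not deviate together. Whether pools shared a litter or a batch was not tested. With the replicate block 4 IDs were called, as without it, 0 of them members, and the member median was -0.21. Gad2, with an unadjusted p of 0.0458 in the main test, was at 0.0241 to 0.166 over the 14 alternatives and not under 0.05 in 9 of them, including 5 of the 6 that left out a sample. Of 35 IDs named from the other lists, 12 turned direction in at least 1 of those 6 fits, 19 kept it but moved by over 1.5 times, and 4 (Robo1, Tubb3, Myh3 and Pax8) did neither. Of all listed genes, those called at an adjusted p under 0.05 in an alternative were Tubb3 (0.0447) and Krt15 (0.0350) in DESeq2 with 1 RUVr factor, and Krt15 (0.0204) and Matn1 (0.00155) in edgeR without the low-count filter.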
